A study of Homo sapiens with 8 samples.

Results

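Ribosome biogenesis factors are the proteins that process, modify and fold the precursor of ribosomal RNA and assemble it with ribosomal proteins, mostly in the nucleolus. Small nucleolar ribonucleoproteins (snoRNPs) guide the chemical modification of the precursor, the small subunit processome and the large subunit assembly factors build the subunit precursors, and the RNA exosome trims and degrades the excised pieces. Their transcripts are abundant in growing cells, and many are known targets of the transcription factor MYC. The genes described here are the rows of the expression table whose symbol begins with UTP, NOP, RRP or EXOSC followed by a digit, is NOC2L, NOC3L, NOC4L, IMP3 or IMP4, or is a listed nucleolar factor such as FBL, DKC1, NCL, NPM1 or PES1. The rule reads symbols only and found 60 of the 14526 genes. It was chosen with earlier results of these data known, and the table holds only genes that passed the authors' filter on expression. Of the 60 members, 58 fall into 6 groups by role, and the remaining 2 are the antisense transcript NOP14-AS1 and the pseudogene RRP7BP.

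RNA was sequenced from 4 control replicates and from 4 replicates kept with 10 mM sodium benzoate (SB) for 24 h, all grown in DMEM with serum. SB is a food preservative that raises lysine benzoylation (Kbz) of histones, and the comparison asks which transcripts differ after it. The labels name the cells HepG2, an established line from a human liver carcinoma. Of 20 genes characteristic of hepatocytes, 17 had no row in the table, ALB and APOA1 among them, and of those with a row, TF and CYP2E1 had control means of 0.192 and 0.188 RPKM. In SB-treated cells TF and CYP2E1 had means of 0.379 and 0.680 RPKM, both higher by the test used below, and their part in the results was not tested. Values are RPKM, the reads of a gene divided by its length and by the scaled size of the library. Between 36990091 and 44878446 reads per library fell on the genes of the table, and a member had between 308 and 98634 reads on average in a group. Control replicate 1 lay apart from the other libraries. It was the far value among the controls for 14.6% of all genes, against at most 0.62% for another control, and for 10 of the 60 members. Across 14086 genes its difference from the other controls had a Pearson correlation of -0.711 with GC content, and across the 60 members of -0.778, as a description over genes that share these libraries. Counts are therefore also given without it.

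Transcripts of ribosome biogenesis factors were lower in SB-treated than in control cells, almost throughout the pathway. Of the 60 members, 53 were lower, 3 were higher and 4 did not pass the test (limma on log2(RPKM + 1), adjusted p below 0.05 over all genes). Among all 14526 genes, 32.6% were lower and 33% were higher. The median log2 fold change of the members was -0.47, with quartiles at -0.62 and -0.31, against 0.00 over all genes. For 51 members every SB-treated replicate lay below every control replicate, which held for 30.5% of all genes. For 2 members every SB-treated replicate lay above, which held for 31% of all genes. Falls of at least 0.5 on the log2 scale were found in 25 members and in 5.45% of all genes. The added 1 shrinks the fold change of weakly expressed genes, which can lower the share over all genes. For this cutoff no share was taken among genes at the level of the members. Without control replicate 1, 54 members were lower and 3 were higher, in a fit that called 37.9% of all genes lower.

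**Figure D1:**
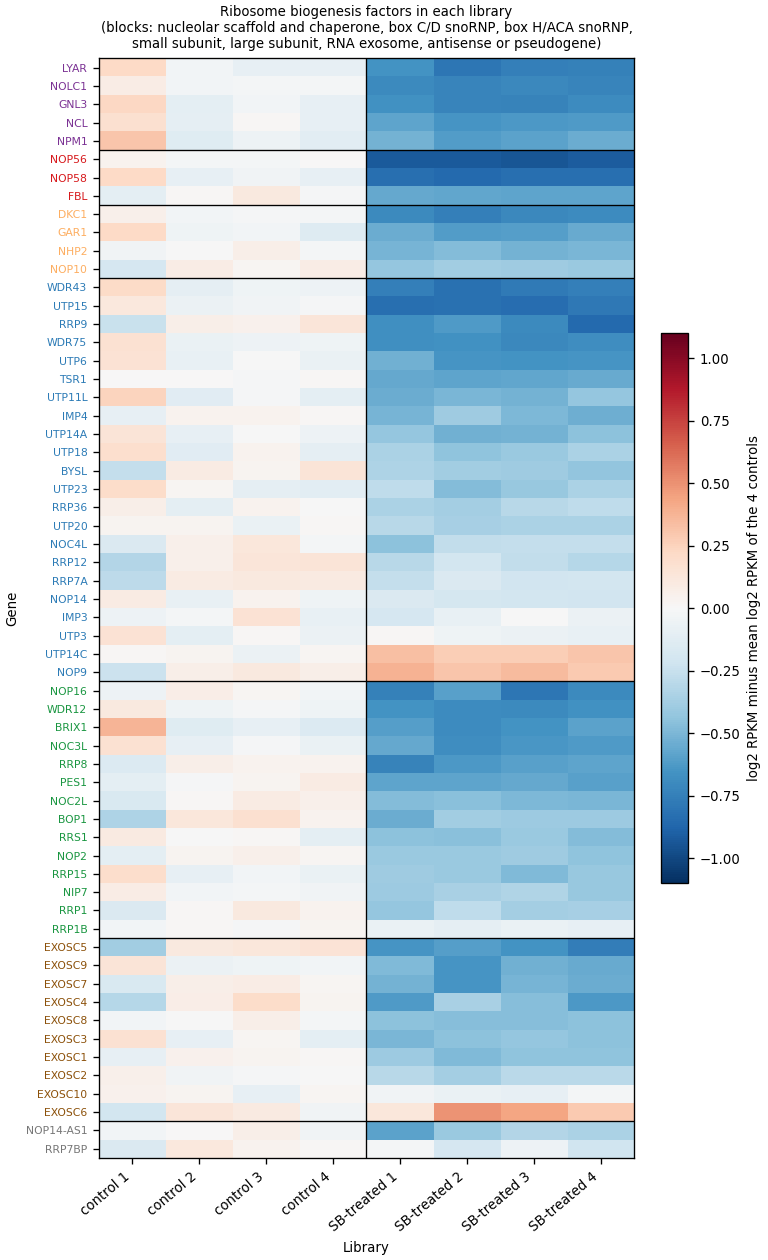
Colour shows the log2 RPKM of each member (rows, in blocks by role) in each of the 8 libraries (columns), minus the mean of the 4 controls. The SB-treated columns are blue for nearly every gene, and UTP14C, NOP9 and EXOSC6 are the red exceptions.

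The members are strongly expressed genes, with a median control level of 46.1 RPKM against 8.30 RPKM over all genes. Strongly expressed genes were lower more often in general. Among the 6644 genes with a mean of at least 10 RPKM, 48.2% were lower, with a median log2 fold change of -0.12. Of the 55 members above this level, 51 were lower. The cutoff lies below the members' median of 46.1 RPKM, and no share is given for a higher cutoff. The 48.2% is therefore not a share among genes matched to the members by level. The reads of all members took between 1.1% and 1.23% of the reads in the control libraries and between 0.828% and 0.848% in the SB-treated ones, a share that no scaling between libraries enters. With NPM1 and NCL left out, the share was between 0.707% and 0.729% in control and between 0.534% and 0.537% in SB-treated libraries. These are shares of the RNA in a library. The amount of RNA per cell was not measured, and less of a transcript per cell cannot be told apart from more of all other RNA.

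**Figure D2:**
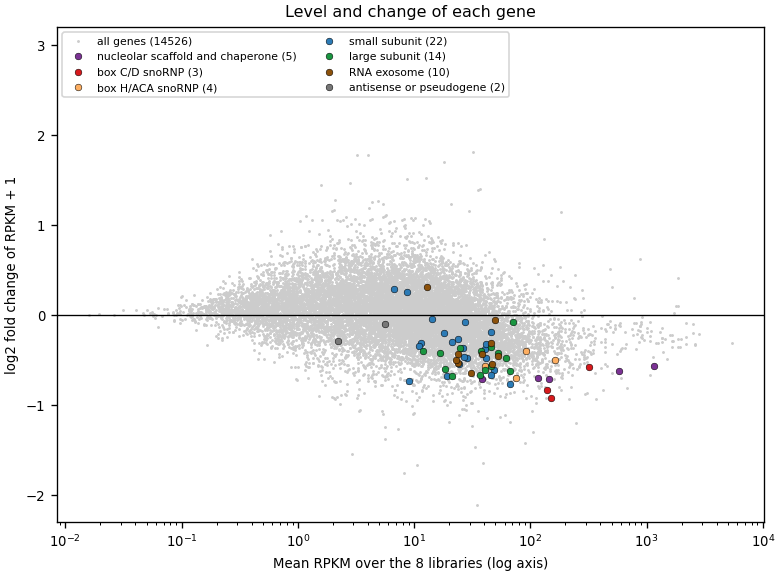
Each point is a gene, with its mean RPKM over the 8 libraries on the log horizontal axis and its log2 fold change of RPKM + 1 on the vertical axis, members coloured by role. Of the 55 members with a mean of at least 10 RPKM, 51 were lower, and the lowest member points are the box C/D proteins NOP56 and NOP58.

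The nucleolar scaffold and chaperone proteins include NPM1 and NCL, the most abundant members, and all 5 were lower, with log2 fold changes between -0.72 and -0.57. For this and the role groups below, the share lower was 32.6% over all genes. It was 48.2% over genes with a mean of at least 10 RPKM. NPM1, nucleophosmin, which carries ribosomal particles and histones, had the highest level of any member. It measured 1707, 1256, 1329 and 1273 RPKM in control replicates 1 to 4 and 964, 900, 919 and 946 RPKM in the SB-treated ones. The groups did not overlap, although control replicate 1 stood far above the other controls. Its log2 fold change was -0.57 (SE 0.089, limma adjusted p = 3.61e-04), and it ranged from -0.61 to -0.46 when each library was left out. NCL, nucleolin, which binds nascent ribosomal RNA, fell from 710 ± 65.8 to 460 ± 9.84 RPKM (SD, n = 4 in each group). NOLC1, a chaperone that brings snoRNPs to the nucleolus, fell from 180 ± 6.99 to 109 ± 0.932 RPKM. GNL3, the GTPase nucleostemin, had a log2 fold change of -0.70. LYAR is a zinc finger protein of the nucleolus. Its controls were at 55.5, 46.8, 44.9 and 44.8 RPKM and its SB-treated replicates at 30.3, 27.6, 28.4 and 28.6 RPKM, so the groups were well apart (log2 fold change -0.72, SE 0.067, limma adjusted p = 1.34e-05).

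Box C/D snoRNPs place methyl groups on the ribose of ribosomal RNA. The core proteins that the rule includes, NOP56, NOP58 and FBL, were all lower. NOP56, a scaffold of the particle, had the largest fall of all members. It was at 201, 193, 193 and 196 RPKM in the controls and at 103, 103, 102 and 104 RPKM after SB, a level 47.4% lower. Both groups were tight, and control replicate 1 did not stand out for this gene (log2 fold change -0.92, SE 0.031, limma adjusted p = 7.79e-08). NOP58, its partner, was at 209, 168, 175 and 168 RPKM in the controls and at 101, 99.0, 101 and 101 RPKM in SB-treated cells. Here control replicate 1 was the highest value, and the groups were apart with or without it (log2 fold change -0.83, SE 0.065, limma adjusted p = 5.11e-06; -0.75 without control replicate 1). FBL, fibrillarin, the methyltransferase itself, fell less, from 356, 385, 412 and 379 RPKM to 259, 257, 256 and 256 RPKM, with no overlap (log2 fold change -0.57, SE 0.045, limma adjusted p = 4.68e-06). The ratio of FBL to NOP56 within a library rose from 1.96 to 2.49, and its values did not overlap between groups.

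Box H/ACA snoRNPs convert uridine to pseudouridine and share a core of DKC1, NHP2, NOP10 and GAR1. All 4 were lower, from -0.40 for NOP10 to -0.70 for DKC1, the pseudouridine synthase dyskerin. With GC content and gene length corrected for, NOP10 was at -0.15 (limma adjusted p = 0.0293), GAR1 at -0.33, NHP2 at -0.33 and DKC1 at -0.73. DKC1 fell from 92.7 ± 2.56 to 56.6 ± 0.954 RPKM (SD, n = 4). NHP2, the most abundant of them, was at 186, 190, 200 and 188 RPKM in the controls and at 134, 137, 133 and 135 RPKM in SB-treated cells, which leaves a clear gap (log2 fold change -0.50, SE 0.035, limma adjusted p = 2.46e-06). GAR1 fell from 48.8 ± 5.28 to 32.6 ± 0.776 RPKM. Over the snoRNP cores and the PES1, BOP1 and WDR12 complex, 12 pairs of members were compared by their ratio within each library, which no scaling enters. In 4 pairs, FBL with NOP56, FBL with NOP58, DKC1 with NHP2 and DKC1 with NOP10, the ratios did not overlap between groups. How often the ratios of other gene pairs separate was not counted, so these 4 are not shown to be unusual. Among single genes, 30.5% separated fully downwards and 31% upwards. Each of the 4 pairs had p = 0.0286 in an exact two-sided permutation test, the smallest that 4 against 4 allow, and 0.0857 after Benjamini-Hochberg adjustment over the 12 pairs. With these group sizes and this many pairs, 4 pairs that separate fully cannot pass the correction, so the adjusted values do not show that subunits of a complex responded alike. The largest shift in log2 ratio was 0.35 for FBL over NOP56, and it was 0.30 without control replicate 1.

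**Figure D3:**
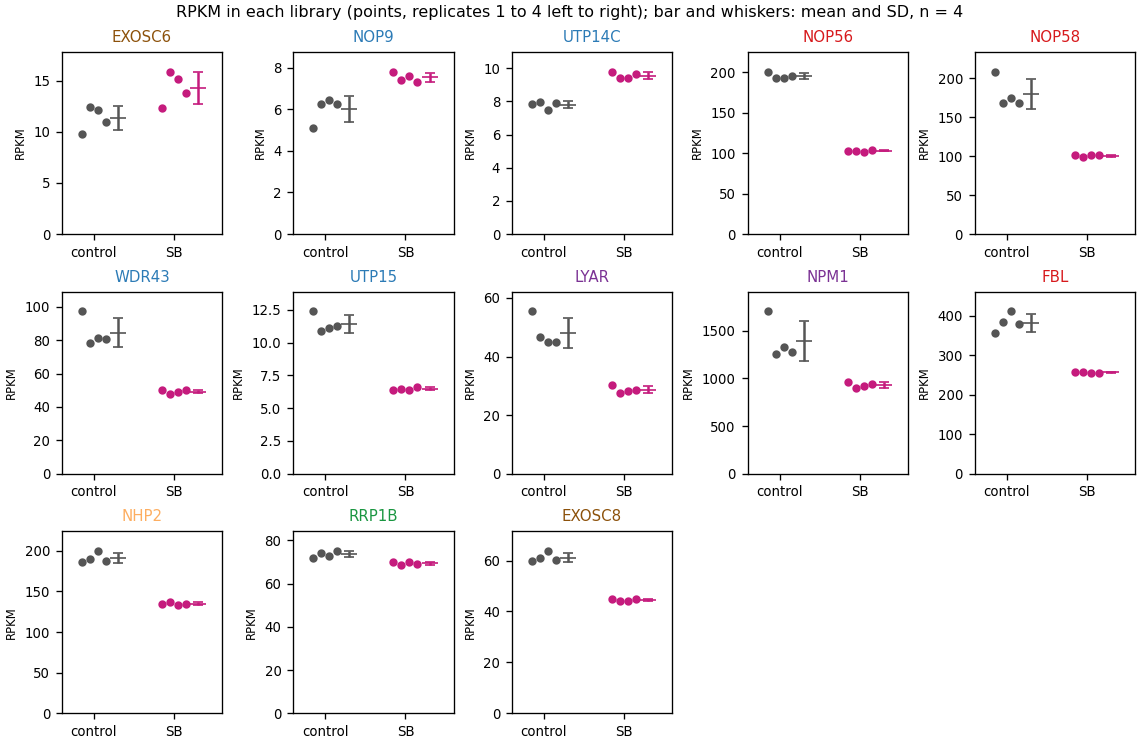
RPKM of 13 members in each library (vertical axis from 0), with replicates 1 to 4 from left to right in the control and SB groups and the mean with its SD beside them. The SB-treated values are tight and lie below the controls in 10 panels, and they lie above or partly above them for EXOSC6, NOP9 and UTP14C.

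The small subunit factors had log2 fold changes between -0.76 and 0.29. Of 22 members, 18 were lower, 2 were higher and 2 did not pass the test, against 32.6% lower and 33% higher over all genes. WDR43, UTP15 and WDR75 belong to the part of the processome that binds the nascent precursor first, and their log2 fold changes were -0.76, -0.73 and -0.67. WDR43 measured 97.4, 78.4, 81.3 and 80.9 RPKM in control and 49.9, 47.8, 49.2 and 50 RPKM in SB-treated replicates. No value of either group came near the other, and control replicate 1 was again the highest (SE 0.064, limma adjusted p = 7.09e-06). UTP15 fell at a much lower level, from 12.4, 10.9, 11.1 and 11.3 RPKM to 6.42, 6.47, 6.38 and 6.62 RPKM, again without overlap (SE 0.042, limma adjusted p = 9.37e-07). RRP9, a protein of the snoRNP needed to cleave the precursor, had a log2 fold change of -0.68, and UTP6, another processome protein, of -0.61. TSR1, which acts late on the nearly finished subunit, gave even values within each group, with 29.0 ± 0.167 RPKM in control and 19.5 ± 0.164 RPKM in SB-treated cells (SD, n = 4).

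Smaller falls were found in the other processome proteins, among them UTP11L with -0.48, IMP4 with -0.47, UTP14A with -0.47, UTP18 with -0.38, BYSL with -0.37, UTP23 with -0.35, RRP36 with -0.32, UTP20 with -0.31 and NOC4L with -0.30. RRP12 with -0.26 and RRP7A with -0.20 passed the test narrowly (limma adjusted p = 0.0282 and 0.0481), and their groups overlapped, since control replicate 1 lay below every SB-treated replicate. The call of RRP7A was lost without any library other than control replicate 1, and that of RRP12 without any other than control replicate 1 and SB-treated replicate 2. The log2 fold change of RRP7A was then as small as -0.17 (limma adjusted p = 0.124, without control replicate 3), and the log2 fold change of RRP12 as small as -0.22 (limma adjusted p = 0.0806, without control replicate 3). NOP14 was at -0.19, and at -0.08 with its call lost when the library sizes carried no TMM factors (limma adjusted p = 0.0897). Of NOP14, 20.7% of the exon bases lie under NOP14-AS1 on the opposite strand, which was itself lower, from 2.53 ± 0.0877 to 1.90 ± 0.156 RPKM (log2 fold change -0.29). The counting is not stated to have used strand, so reads of this pair cannot be told apart where they overlap. IMP3 (28.4 ± 2.26 and 26.7 ± 1.38 RPKM) and UTP3 (14.6 ± 1.15 and 14.1 ± 0.453 RPKM) did not pass the test, with limma adjusted p-values of 0.243 and 0.516.

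The 2 small subunit factors that rose were UTP14C and NOP9. UTP14C, a retrotransposed copy of UTP14A, was at 7.85, 7.98, 7.48 and 7.90 RPKM in the controls and at 9.80, 9.39, 9.39 and 9.62 RPKM after SB. The groups were apart (log2 fold change 0.26, SE 0.034, limma adjusted p = 1.04e-04), while UTP14A fell from 31.1 ± 2.25 to 22.2 ± 0.769 RPKM. In GENCODE, all exon bases of UTP14C also lie in exons of ALG11 on the same strand, so its reads cannot be assigned to it with certainty, and reads shared with UTP14A were not examined. NOP9, an RNA-binding protein with Pumilio repeats, was at 5.10, 6.28, 6.45 and 6.25 RPKM in the controls and at 7.82, 7.39, 7.62 and 7.32 RPKM in SB-treated cells (log2 fold change 0.29, SE 0.062, limma adjusted p = 0.00256). The lowest value was control replicate 1, and the log2 fold change without it was 0.22. Of its exon bases, 26.1% overlap CIDEB on the opposite strand.

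All 14 large subunit factors were lower, although RRP1B turned to 0.02 when the library sizes carried no TMM factors. Over all genes, 32.6% were lower. PES1, BOP1 and WDR12 form the PeBoW complex, which is needed to process the large subunit precursor, and had log2 fold changes of -0.57, -0.42 and -0.66. NOP16 was at -0.68, from 26.3 ± 1.04 to 16.1 ± 0.961 RPKM (SD, n = 4). BRIX1, NOC3L and the methyltransferase RRP8 followed with -0.63, -0.61 and -0.60. NOC2L, RRS1, NOP2, which methylates the large subunit RNA, RRP15, NIP7 and RRP1 were between -0.48 and -0.35. RRP1B, the most abundant of the group after BRIX1 in control cells and the first over all libraries, changed least. It was at 71.9, 74.2, 72.7 and 75.1 RPKM in the controls and at 70.0, 68.7, 70.0 and 68.9 RPKM in SB-treated cells, groups that do not overlap but are close (log2 fold change -0.08, SE 0.031, limma adjusted p = 0.0439). Its call was lost without any library other than control replicate 1, and the log2 fold change of RRP1B was then between -0.09 and -0.07, with limma adjusted p-values of up to 0.109. The log2 fold change of its paralogue RRP1 was -0.35.

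The RNA exosome is a barrel of nonidentical subunits with a cap, to which the nuclease EXOSC10 binds in the nucleus. Of the 9 core subunits EXOSC1 to EXOSC9, 8 were lower, from -0.31 for EXOSC2 to -0.65 for EXOSC5, against 32.6% of all genes. EXOSC8, a subunit of the barrel with the highest mean level of the group over all libraries, was at 59.8, 60.9, 63.8 and 60.2 RPKM in the controls and at 44.7, 44.3, 44.1 and 44.7 RPKM in SB-treated cells, with a clear gap between them (log2 fold change -0.45, SE 0.033, limma adjusted p = 3.42e-06). With GC content and gene length corrected for, the log2 fold change of EXOSC8 was -0.21 and that of EXOSC1 -0.22. EXOSC5 had its lowest control value, 28.8 RPKM, in replicate 1, against 40.4 to 41.6 RPKM in the others, and its SB-treated values lay between 22.2 and 24.7 RPKM. EXOSC10 did not pass the test (50.3 ± 2.12 and 48.4 ± 1.08 RPKM, limma adjusted p = 0.253). EXOSC6 was the only core subunit that rose. Its controls were at 9.79, 12.4, 12.1 and 11 RPKM and its SB-treated replicates at 12.3, 15.9, 15.2 and 13.8 RPKM. The groups overlapped by a single value, SB-treated replicate 1 (log2 fold change 0.31, SE 0.088, limma adjusted p = 0.0113). No exon base of EXOSC6 overlaps another gene in GENCODE.

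**Figure D4:**
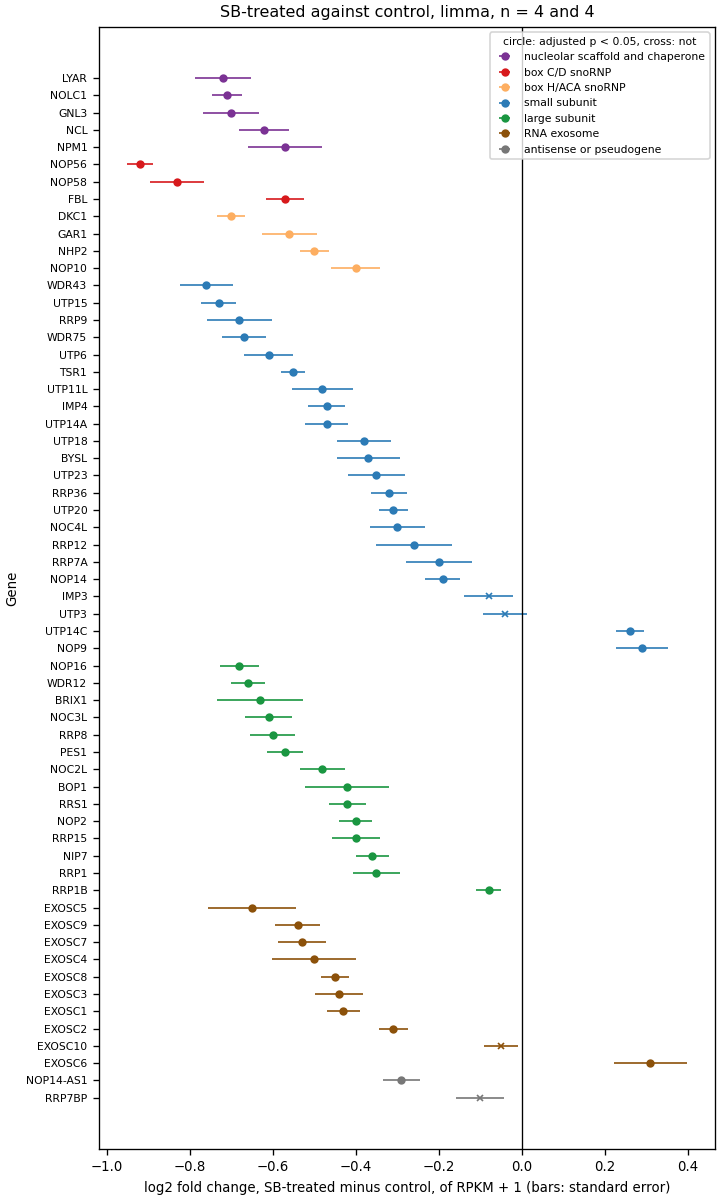
Points are log2 fold changes of RPKM + 1, SB-treated minus control, with standard errors from limma, for the 60 members sorted within each role (n = 4 in each group). Circles passed the test and crosses did not, and 53 circles lie left of 0.

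The order of levels among the members was led by NPM1, NCL and FBL, with control means of 1392, 710 and 383 RPKM. NOP56, NHP2, NOLC1 and NOP58 followed between 180 and 196 RPKM, and the differences between neighbours in that stretch were not tested. The 3 members that rose were the 3 with the lowest control levels of the 58 with a role, NOP9 at 6.02, UTP14C at 7.80 and EXOSC6 at 11.3 RPKM. UTP15, the next above them at 11.4 RPKM, was among the deepest falls. Of the 36 members with under 5% of their exon bases in another gene, 34 were lower and 1, EXOSC6, was higher. In the others reads may be shared with the overlapping gene. Besides UTP14C the shares on the same strand were highest in EXOSC4 with 56.7% and NOP2 with 54.4% of exon bases. The counting is not stated to have used strand. Where the largest overlap was on the opposite strand, it was highest in EXOSC10 (36.7%), RRP7A (33.9%), IMP3 (31.7%) and NHP2 (28.0%). The pseudogene RRP7BP, a copy related to RRP7A whose reads may not be separable from it, was at 5.91 ± 0.465 and 5.43 ± 0.365 RPKM and did not pass the test (limma adjusted p = 0.146).

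Some members carry small nucleolar RNA genes inside their introns or exons. By GENCODE these are DKC1, GNL3, NCL, NOP56, NOP58, TSR1 and WDR43. All 7 were lower, between -0.92 and -0.55, with a median of -0.70. Of the other 53 members, 46 were lower, with a median of -0.43. The 7 were also more strongly expressed, with a median control level of 143 RPKM against 43.3 RPKM. The difference between these sets was not tested. Of the 259 other genes in the table that hold such an RNA, 48.3% were lower, with a median of -0.16.

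Promoter sequences from RefSeq (GRCh38.p14, from 250 bases before to 50 after each start) were found for 50 of the 60 members. The E-box CACGTG, the site that MYC and related factors bind and that reads the same on both strands, occurred in 17 of the 50 (34%), against 8.77% of 27305 genes and 12.6% of the 11328 with a row in the table. All 17 were lower, with a median log2 fold change of -0.56 and a range of -0.76 to -0.19. Among the 33 members without it, 27 were lower and 3 were higher, with a median of -0.48, and the difference between them was not tested. In 7 members an E-box lay wholly before the start. A window from each is shown for the context of the site, 5′ to 3′ on the strand of the gene and with the E-box in capitals.
LYAR: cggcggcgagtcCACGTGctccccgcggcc
UTP18: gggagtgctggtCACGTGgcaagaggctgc
UTP14A: accttgggcCACGTGgaaaccaggggccag
UTP20: gcgccgttcttttttccgtcCACGTGaccc
EXOSC5: taaacgctaagcCACGTGcggacgcccagg
IMP4: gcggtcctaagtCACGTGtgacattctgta
NOP10: gtagggacactcCACGTGttttagcctgca
The windows lie at chr4:4290068-4290097 (minus strand) for LYAR, inside the GENCODE span of the gene, and upstream of the gene's span for the others, at chr17:51260445-51260474 (plus) for UTP18, chrX:129905914-129905943 (plus) for UTP14A, chr12:101280075-101280104 (plus) for UTP20, chr19:41397431-41397460 (minus) for EXOSC5, chr2:130342682-130342711 (plus) for IMP4 and chr15:34343289-34343318 (minus) for NOP10. The first base of the E-box was 64 bases before the RefSeq start in LYAR, 89 in UTP18 and in EXOSC5, 241 in UTP14A, 10 in UTP20, 203 in IMP4 and 170 in NOP10. Another E-box of NOP10 began 11 bases before its start.

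For the other motifs searched, on both strands, the shares were as follows. CACGCG was found in 28% of the members with a promoter and in 22.6% of table genes, CCGGAAG in 28% and 21.4%, GGGCGG in 72% and 76.7%, CCAAT in 42% and 43.2%, and CTTTC in 58% and 57.6%. CATGTG was in 2% and 9.99%, the NRF1 motif in 4% and 2.63%, TGACGTCA in 4% and 3.76%, and the ZBTB33 palindrome in 4% and 0.953%. These 10 motifs were chosen after the direction of the members was known. A match describes the letters of the window and does not show binding.

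Other genes of the pathway were counted in the same fit, in which 32.6% of all genes were lower. Among genes with a mean of at least 10 RPKM the share was 48.2%. Of 103 other ribosome biogenesis genes in the table, 89 were lower, 2 were higher and 12 did not pass the test, with a median log2 fold change of -0.39. Among these 103 genes, the lowest log2 fold change was that of NUFIP1, an assembly factor of box C/D snoRNPs (-1.08). NUFIP1 fell from 13.9 ± 1.01 to 6.03 ± 0.236 RPKM (SD, n = 4). PAK1IP1 followed with -0.91, and NPM3, a relative of NPM1, with -0.90. The genes that rose were the RNA helicases DDX51 with 0.23 and DDX54 with 0.18. With GC content and gene length corrected for, DDX51 was at 0.10, and DDX54 was at 0.05 and no longer passed the test (limma adjusted p = 0.0798). Cytosolic ribosomal protein genes, the cargo of this machinery, were lower in 57 of 81, while 24 did not pass the test, with a median of -0.22. Of 14 RNA polymerase I subunits and factors, 8 were lower (57.1%) and 1 was higher, with a median of -0.28. Median control levels were 32.8 RPKM for the other biogenesis genes, 929 RPKM for the ribosomal protein genes and 23.1 RPKM for the RNA polymerase I genes. The differences between these lists were not tested.

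**Figure D5:**
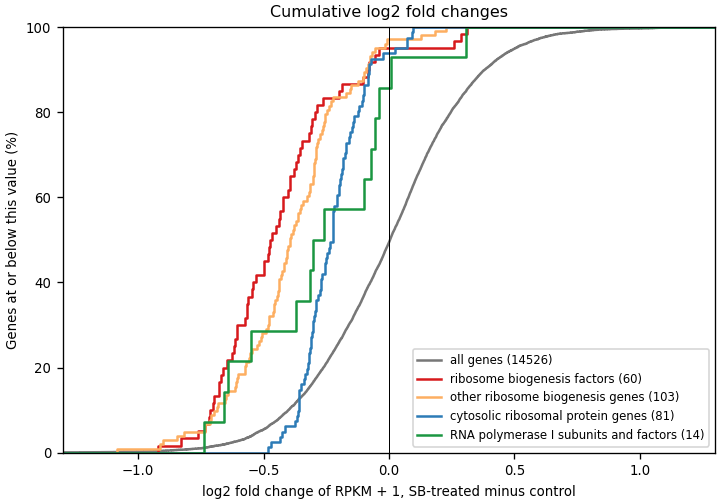
Each step curve gives the percent of genes (vertical axis) with a log2 fold change of RPKM + 1 at or below the value on the horizontal axis, for all genes, the 60 members and 3 related lists. The member curve crosses 50% at -0.47 and the curve of all genes at 0.00.

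The counts were also taken under other scalings. When the library sizes carried no TMM factors, which moved the median of all genes to 0.08, 49 members were lower and 3 were higher, against 3357 lower and 6253 higher genes overall. The median of the members was then -0.37. With values corrected for GC content and gene length, 53 members were lower and 4 were higher, with a median of -0.37, against 36.8% of all genes lower (5178 lower and 4871 higher). This correction made the fold change over 1.5 times smaller in NPM1 (-0.36), BRIX1 (-0.37), NIP7 (-0.22), UTP18 (-0.23), RRP36 (-0.14), EXOSC3 (-0.25), EXOSC9 (-0.29) and NOP9 (0.15), beside the snoRNP and exosome members given above, and over 1.5 times larger in EXOSC6 (0.48), RRP7A (-0.34) and RRP1B (-0.17). The log2 fold change of UTP3 was then 0.10, and it was called higher (limma adjusted p = 0.0291).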

How the data were processed

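RNA-seq libraries of 4 control and 4 SB-treated replicates, which the submitters call biological, were analysed. By the submitters' processing notes and the study's methods, the authors mapped the reads to hg38 with TopHat2 2.1.0, counted them per gene with featureCounts 1.5.0, dropped genes unless 2 or more samples exceeded 1 CPM, and scaled library sizes with TMM factors in edgeR 3.16.5. The deposited values used here are RPKM per gene and library. The table's columns of fold changes, mean levels, p-values and FDR are the authors' own comparison and were not used, and 0 columns of per-sample values were left unused.

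Log2(RPKM + 1) of all 14526 genes was fitted with limma 3.58.1 in R 4.3.3 (lmFit, eBayes, Benjamini-Hochberg adjustment). The code was first run on simulated counts in which few genes changed and no library lay apart. That setting differs from these data, so the run does not show how the fit handles control replicate 1. For weakly expressed genes the added 1 shrinks the fold change. Whole reads were recovered from the RPKM steps for 100% of the genes (within 0.002 reads), which gave depths and TMM factors. Promoters came from RefSeq GRCh38.p14 and gene positions from GENCODE release 44, both of the hg38 build, read with Python 3.11.15. GC content was found for 97.0% of the genes and for all 60 members.

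A hepatocyte gene is not reported here. The members and gene lists were chosen with earlier results of these data known. Values in every library are given for the called members that rose most and that fell most (up to 5 each way, and only 3 rose) and for the member with the highest mean RPKM in each role group. Other pathway genes are named by the same rule, up to 3 each way (only 2 rose). Alternatives were a pseudocount of 0.1, no TMM factors, a mean of at least 1 RPKM, the replicate block, voom on the recovered reads, a GC and length correction with and without the block, and leaving out each library.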

Additional observations from a re-analysis of the deposited data

Results flagged for a closer look

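In 130 groups of 4 libraries, 17 held a value far from the other 3, judged by its gap to the nearest other value as a share of the group's range against Dixon's critical value for 4 samples, and chance passes about 6.5 of them. Control replicate 1 was the far value in 12 of them, and the cause was not tested. It was highest for BRIX1 (share 0.871, 105 RPKM against 76.3 RPKM in the nearest control), EXOSC9 (0.854), NIP7 (0.843), NOLC1 (0.903), WDR43 (0.833) and WDR75 (0.909). It was lowest for EXOSC5 (0.920, 28.8 RPKM against 40.4 RPKM), NOP9 (0.867), RRP7A (0.958, 15.9 RPKM against 20.7 RPKM), RRP8 (0.885), DDX51 (0.833) and NPM3 (0.842). Control replicate 3 was lowest for EXOSC10 (0.845). Among the SB-treated libraries, replicate 1 was lowest for BOP1 (0.885) and NOC4L (0.949) and highest for UTP6 (0.889), and replicate 2 was lowest for EXOSC2 (0.875).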

How the results depend on the processing

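Over the alternatives that kept every library, 49 to 53 members were lower and 3 or 4 higher, and of the other ribosome biogenesis genes 76 to 91 were lower and 2 or 3 higher. Leaving out each of the 8 libraries gave 50 to 54 members lower and 3 higher, and 83 to 96 of the other genes lower and 2 to 3 higher. Without TMM factors EXOSC10 turned to 0.05, IMP3 to 0.02, RRP1B to 0.02 and UTP3 to 0.06. With the GC and length correction, with or without the replicate block, IMP3 turned to 0.06 and UTP3 to 0.10, and without control replicate 1 UTP3 turned to 0.01 (range -0.07 to 0.01 when each library was left out). Of these, only RRP1B had passed the test. For same-numbered replicates the labels give a shared number and do not say what else they share. Their deviations correlated at 0.380, 0.327, 0.173 and -0.160 for numbers 1 to 4, and only numbers 1 and 2 correlated best with their own. After the GC and length correction the correlations were 0.103, 0.122, 0.0471 and -0.0993. With the replicate block, 52 members were lower and 3 higher, and the call lost was that of RRP1B. Calls of RRP1B, RRP7A and RRP12 were lost in most fits that left out a library, and RRP7BP was called lower without control replicate 1. Without TMM factors NOP14, RRP7A and RRP12 also lost their calls. Depth limits NOP14-AS1 most, with a mean of 308 reads in SB-treated libraries.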
